A study of Mus musculus with 12 samples.

Results

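The genes described here move water and ions across the uterine lining: 3 aquaporins (Aqp1, Aqp5 and Aqp8), the chloride channel Cftr, 2 subunits of the epithelial sodium channel (Scnn1a and Scnn1b), the Na,K-ATPase subunit Atp1b1 and 2 carbonic anhydrases (Car2 and Car12). They are 9 of the 35896 genes measured and were picked by symbol, with earlier results of these data known. The tissue was the whole uterus of wild-type female Swiss Webster mice, an outbred stock, 8 to 12 weeks old, with no treatment named in the labels. The animals were in 4 natural stages of the estrous cycle, and there were 3 uteri in each of proestrus (replicates 1, 2 and 3), estrus (3, 4 and 5), metestrus (5, 6 and 7) and diestrus (3, 4 and 5). Transcripts were read with 3' TagSeq, which sequences a short stretch near the 3' end, and levels are given in CPM (estimated counts scaled to a common library total over the tested genes, with TMM factors). How an animal was staged was not given in the sources used here.

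The luminal and glandular epithelium of the uterus sets the volume and the ionic content of the fluid in the lumen, and that fluid accumulates around proestrus and is lost again later in the cycle. Chloride and bicarbonate leaving through CFTR draw water into the lumen, sodium entering through the epithelial sodium channel draws it out, and the Na,K-ATPase supplies the gradient for both. Aquaporins are the water pores, and carbonic anhydrases interconvert carbon dioxide and bicarbonate.

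Transcripts of these genes did not follow the cycle together. Car2, Cftr, Aqp5 and the full-length transcripts of Car12 were high in proestrus and estrus and low in diestrus. Scnn1b was at the limit of detection in proestrus and highest in estrus, Atp1b1 was highest in diestrus and lowest in proestrus, and Aqp1 was lowest in proestrus and highest in metestrus. Scnn1a was above the detection floor in diestrus uteri only, and Aqp8 was close to the floor in every stage. In edgeR's quasi-likelihood F test over the stages, with Benjamini-Hochberg adjustment over 12052 genes, 7 members were tested and all 7 of these had an adjusted p under 0.05, beside 23.2% of all genes tested. Aqp8 and Scnn1a had too few counts to be tested, and a filter on counts favours genes that are high in some stage, so the 7 are not the whole set.

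**Figure D1:**
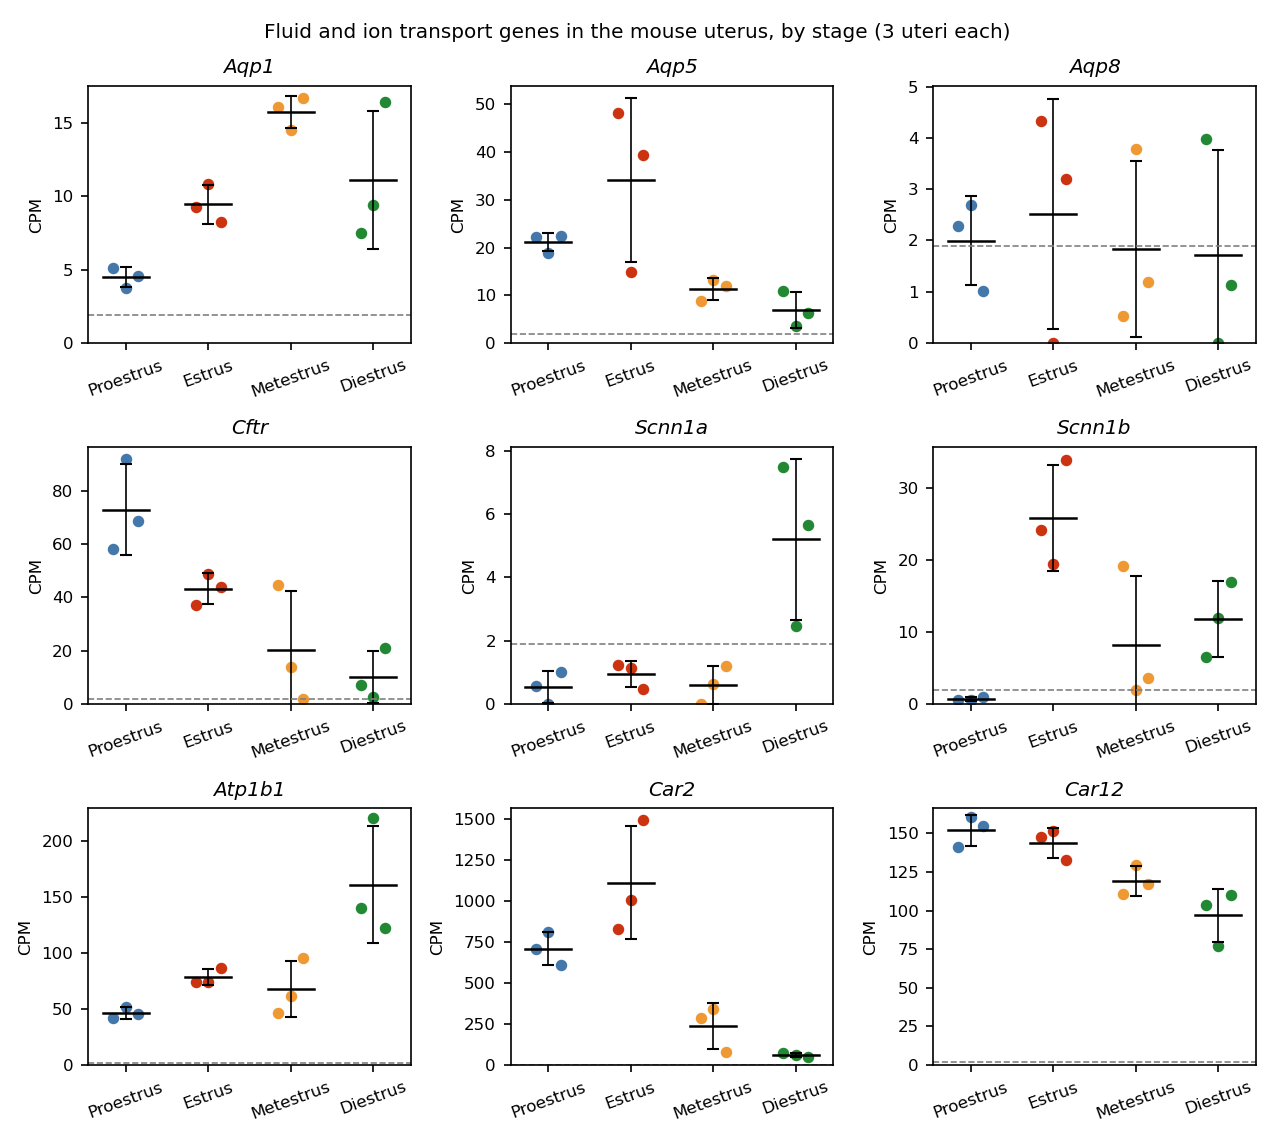
Level of each of the 9 genes in CPM (y axis, linear, from 0) in the 12 uteri by stage (x axis). Points are uteri, horizontal bars the mean and error bars the SD of 3 uteri, and the dashed line is the highest 3-count detection floor of any library. Car2 fell from 1108 CPM in estrus to 58.5 CPM in diestrus, whereas Atp1b1 was highest in diestrus at 161 CPM.

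The stretch before the start site of a gene is where many regulators bind, and promoters of 7 members were at hand (RefSeq, build GRCm38.p6). The 250 bases before the start were searched on both strands for letters of common motifs. The 4 sequences below are of genes with different profiles: Cftr (highest in proestrus; chr6:18170437-18170686, plus strand), Scnn1b (highest in estrus; chr7:121864788-121865037, plus strand), Atp1b1 (highest in diestrus; chr1:164458356-164458605, minus strand) and Car12 (highest in proestrus as a gene and in estrus by its full-length transcripts; chr9:66713436-66713685, plus strand). Each is written 5′ to 3′ along the gene, and capitals mark every motif match.
Cftr: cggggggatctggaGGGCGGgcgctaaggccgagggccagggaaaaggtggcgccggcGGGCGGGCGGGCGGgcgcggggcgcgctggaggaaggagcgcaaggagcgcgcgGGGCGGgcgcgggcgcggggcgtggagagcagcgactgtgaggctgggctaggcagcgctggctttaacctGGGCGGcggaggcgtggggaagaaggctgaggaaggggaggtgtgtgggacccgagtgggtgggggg
Scnn1b: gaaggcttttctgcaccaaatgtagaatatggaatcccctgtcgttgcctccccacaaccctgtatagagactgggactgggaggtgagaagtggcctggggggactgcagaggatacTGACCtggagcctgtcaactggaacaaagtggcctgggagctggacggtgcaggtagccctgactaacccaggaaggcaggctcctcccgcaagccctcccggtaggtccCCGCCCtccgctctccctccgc
Atp1b1: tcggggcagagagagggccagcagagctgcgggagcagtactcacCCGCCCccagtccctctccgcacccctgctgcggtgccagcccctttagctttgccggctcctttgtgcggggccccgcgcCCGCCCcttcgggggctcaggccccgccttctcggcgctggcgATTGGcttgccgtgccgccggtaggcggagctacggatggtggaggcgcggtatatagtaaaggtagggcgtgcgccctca
Car12: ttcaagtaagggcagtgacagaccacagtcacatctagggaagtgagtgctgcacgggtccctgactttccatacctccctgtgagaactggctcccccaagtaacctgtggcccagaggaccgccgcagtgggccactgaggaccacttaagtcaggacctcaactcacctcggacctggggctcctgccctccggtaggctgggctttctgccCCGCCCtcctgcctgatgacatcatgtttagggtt
The capitals in Cftr are 6 matches to the GC box GGGCGG, 3 of which overlap in a row. In Scnn1b they are 1 match to the estrogen receptor core letters GGTCA, on the minus strand as TGACC 132 bases before the start, and 1 GC box. Atp1b1 holds 2 GC boxes and 1 CCAAT box (CCAAT, on the minus strand as ATTGG), and Car12 holds 1 GC box.

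A GC box was found in 6 of the 7 promoters, and in 32.9% of all 27025 promoters of the same length. The GGTCA letters were found in 2 of the 7, Scnn1b and Aqp5, and in 34.9% of all promoters. CCAAT was found in 1 of the 7 and in 34.5% of all. None of the 7 held the full estrogen response element, which is GGTCA, any 3 bases and TGACC and so contains the GGTCA letters (0.0629% of all promoters), nor the TGTTCT letters of progesterone and glucocorticoid receptor sites (16.2%), the AP-1 site TGANTCA (6.87%), the cyclic AMP response element TGACGTCA (1.62%) or a TATAAA box (13%). The GC content of the 7 promoters ran from 52.4% in Aqp8 to 78.4% in Aqp5, and the median over all promoters was 52%. In the GENCODE annotation 246 of the 250 bases of the Aqp5 window lie in exons, as do 3 of those of Aqp8, so that the Aqp5 matches and GC content are mostly of exon sequence. A match describes the letters only.

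The libraries held 1652841 to 2200563 estimated counts, and a floor of 3 counts, up to which a library with no read of a gene may still hold it, stood for 1.37 to 1.83 CPM before TMM scaling. Markers of other cell types were measured in the same libraries. All 8 epithelial markers were called in the F test (8 of 8), none was at 0, and their summed level ran from 1893 to 2499 CPM in proestrus, 1684 to 2077 CPM in estrus, 567 to 1206 CPM in metestrus and 510 to 738 CPM in diestrus. Gland markers, 2 of 3 tested called, had higher sums in metestrus and diestrus. They summed to 9.70 to 20.8, 18.3 to 27.6, 36.8 to 891 and 39.1 to 138 CPM in the same order of stages. The 8 endothelial markers summed to 1351 to 2103 CPM over the 12 uteri, most of it Pecam1, whose stage means ran from 1201 to 1596 CPM, highest in estrus. The other 7 each had their highest mean in metestrus. Smooth muscle markers, 3 of 6 called in the F test, summed to 6204 to 8771 CPM in proestrus, 8230 to 10592 CPM in estrus, 5201 to 7340 CPM in metestrus and 6142 to 6454 CPM in diestrus. Leukocyte markers, 5 of 6 tested called, summed to 132 to 151, 379 to 456, 196 to 435 and 214 to 357 CPM in the same order. Within metestrus the uteri stood apart from each other. Replicate 5 had the highest epithelial sum (1206 CPM) and the lowest red blood cell sum (163 CPM), replicate 6 had 1434 CPM of red blood cell markers, and replicate 7 had the lowest epithelial sum (567 CPM) and 891 CPM of gland markers, against 47.3 CPM or less in the other metestrus uteri. Markers of stratified squamous epithelium, such as Krt5 and Krt14, summed to 3.42 CPM or less in every library. Oviduct and ciliated cell markers, 2 of 2 tested called, were not absent. They summed to 116 to 137 CPM in proestrus, 70.1 to 81.0 CPM in estrus, 51.1 to 298 CPM in metestrus and 132 to 231 CPM in diestrus. Stromal markers, 5 of 8 called, summed to 4442 to 7749 CPM over the 12 uteri. The F test called 23.2% of all genes. In whole tissue, fewer cells of a type and less RNA per cell cannot be told apart.

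**Figure D2:**
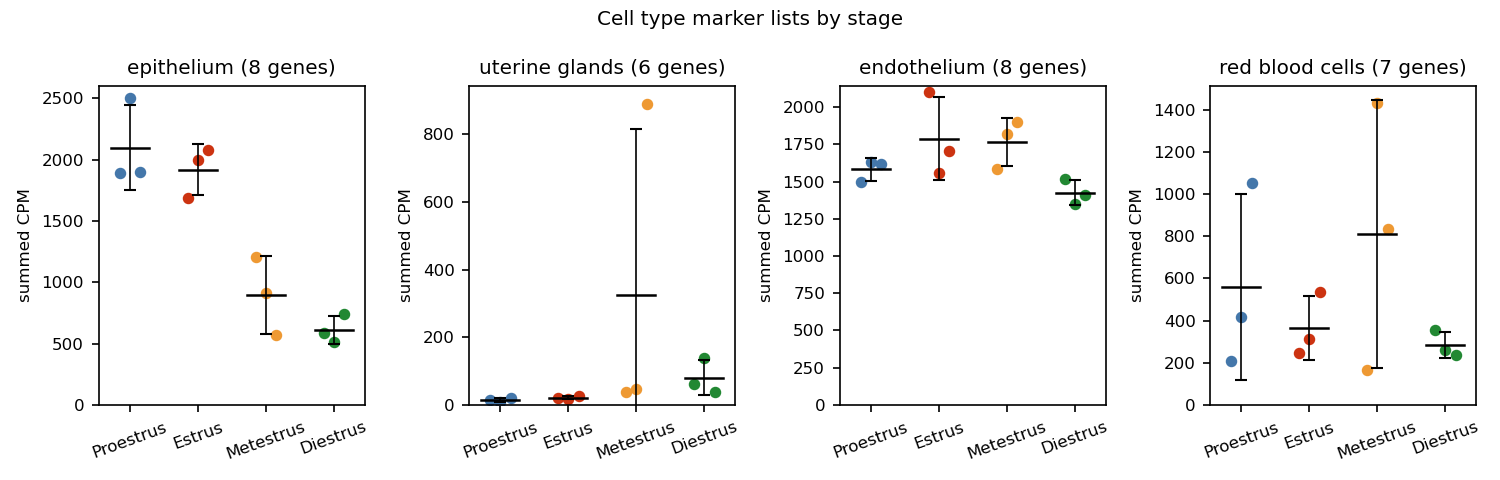
Summed CPM (y axis, linear, from 0) of 4 lists of cell type markers in the 12 uteri by stage (x axis). Points are uteri, horizontal bars the mean and error bars the SD of 3 uteri. Epithelial markers were high in proestrus and estrus, endothelial markers, mostly Pecam1, lay between 1351 and 2103 CPM, and metestrus replicate 7 stood out in the gland list at 891 CPM.

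Aqp1 (ENSMUSG00000004655, chromosome 6, 55336432 to 55348555, plus strand) encodes a water channel known from the endothelium of small vessels and from red blood cells. Its level was 5.13, 3.77 and 4.57 CPM in the proestrus uteri, 9.28, 10.9 and 8.24 CPM in estrus, 16.1, 14.5 and 16.7 CPM in metestrus, and 7.48, 9.39 and 16.4 CPM in diestrus. All proestrus uteri were below all others, and diestrus overlapped with estrus and metestrus. Aqp1 differed over the stages (edgeR F test, adjusted p = 0.0101) and was 3.48-fold higher in metestrus than in proestrus (log2 difference 1.80 ± 0.34 SE, adjusted p = 0.0128). It was 2.43-fold lower in proestrus than in diestrus (log2 difference -1.28 ± 0.35, adjusted p = 0.0343). Estrus against proestrus missed the threshold (log2 difference 1.06 ± 0.35, adjusted p = 0.0541), and estrus and diestrus, neighbours in the order of levels, differed by 0.22 on the log2 scale (95% interval -0.45 to 0.90). Metestrus and diestrus, at 15.8 ± 1.12 and 11.1 ± 4.70 CPM (SD, n = 3), did not differ beyond their spread either.

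Among the metestrus uteri, replicate 5 had Aqp1 at 16.1 CPM and a red blood cell sum of 163 CPM. Replicate 6 had 14.5 and 1434 CPM, and replicate 7 had 16.7 and 835 CPM. The part of red blood cells in the Aqp1 result was not tested. Endothelial markers other than Pecam1 had higher means in metestrus than in proestrus: Tek was 11.3 and 25.9 CPM, Vwf 6.43 and 20.9 CPM, Emcn 20.1 and 36.6 CPM and Cdh5 35.8 and 56.7 CPM on average in proestrus and metestrus. The median log2 difference of the 8 endothelial markers between metestrus and proestrus was 0.72, beside 0.02 over all genes, with adjusted p values of 0.0608 (Tek) or more, and their part in the Aqp1 result was not tested. The counts behind Aqp1 were low, 222 in all 12 libraries. The call against diestrus was lost without proestrus replicate 1 (adjusted p = 0.0675), 2 (0.129) or 3 (0.0967) or diestrus replicate 4 (0.0559) or 5 (0.160), with DESeq2 (0.0762), with counts scaled from TPM (0.164) and in a fit of the 2 stages alone (0.0564). That of metestrus against proestrus was lost without proestrus replicate 2 (0.0664) or 3 (0.0587) and with the 2 stages alone (0.0530). Estrus against proestrus was called without diestrus replicate 3 (0.0481) or 5 (0.0344) and with the 2 stages alone (0.0435).

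Aqp5 (ENSMUSG00000044217, chromosome 15, 99590782 to 99594829, plus strand) is a water channel of the apical membrane of secretory epithelia. It measured 22.2, 18.9 and 22.3 CPM in proestrus, 48.3, 14.9 and 39.4 CPM in estrus, 8.82, 13.3 and 11.9 CPM in metestrus, and 11.0, 3.46 and 6.23 CPM in diestrus. Estrus replicate 4 lay below every proestrus uterus but above every metestrus and diestrus uterus. Aqp5 differed over the stages (adjusted p = 0.00561) and was 4.92-fold lower in diestrus than in estrus (log2 difference -2.30 ± 0.42, adjusted p = 0.00197), a call kept in every fit that left out a library. Metestrus was 3.02-fold below estrus (log2 difference -1.60 ± 0.40, adjusted p = 0.0305), and proestrus was 3.05-fold above diestrus (1.61 ± 0.44, adjusted p = 0.0362).

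Of the neighbouring stages of Aqp5, estrus and proestrus (adjusted p = 0.230), proestrus and metestrus (0.231) and metestrus and diestrus (0.621) did not pass the test. As a share of the epithelial marker sum, Aqp5 was 1.04% ± 0.243 (SD, n = 3) in proestrus, 1.84% ± 1.06 in estrus, 1.43% ± 0.686 in metestrus and 1.13% ± 0.652 in diestrus, with overlapping ranges. Aqp5 thus went with the epithelial markers, and their part in the result was not tested. The metestrus call was lost without estrus replicate 3 (adjusted p = 0.112) or 5 (0.108) or metestrus replicate 5 (0.0570), 6 (0.0658) or 7 (0.0525), with counts scaled from TPM (0.0504) and with the 2 stages alone (0.0872), and the proestrus call without proestrus replicate 1 (0.0871), 2 (0.0779) or 3 (0.0983) or diestrus replicate 4 (0.144) or 5 (0.109) and with counts scaled from TPM (0.0585).

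Aqp8 (ENSMUSG00000030762, chromosome 7, 123462291 to 123468004, plus strand), a water channel that also passes ammonia, gave 44 counts in all 12 libraries, and 6 of the 12 were at or under the 3-count floor. Its level was 2.28, 2.70 and 1.01 CPM in proestrus, 4.33, 0 and 3.21 CPM in estrus, 0.519, 3.79 and 1.19 CPM in metestrus, and 3.99, 0 and 1.13 CPM in diestrus. Every stage overlapped every other, and a difference between stages was not detectable at this depth. Without a filter on counts the F test over the stages gave an adjusted p of 0.972 (edgeR, 20686 genes).

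Cftr (ENSMUSG00000041301, chromosome 6, 18170687 to 18322768, plus strand) is the cyclic AMP-gated channel through which epithelia secrete chloride and bicarbonate, and its GC-rich promoter is printed above. The proestrus uteri held 58.2, 91.6 and 68.5 CPM and the estrus uteri 37.1, 48.6 and 44.0 CPM. Metestrus was uneven, with 44.6, 13.9 and 1.79 CPM in replicates 5, 6 and 7, the last at the detection floor, and diestrus held 6.98, 2.47 and 20.9 CPM. The proestrus uteri were above all the others, diestrus was below estrus without overlap, and metestrus replicate 5 lay within the range of estrus.

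Cftr was 7.36-fold higher in proestrus than in diestrus (log2 difference 2.88 ± 0.67, adjusted p = 0.0171) and differed over the stages (adjusted p = 0.0234). It was 4.38-fold lower in diestrus than in estrus (log2 difference -2.13 ± 0.69, adjusted p = 0.0398). Both folds were larger without diestrus replicate 5 (20.9 CPM), at 15.2 (log2 difference 3.93, adjusted p = 0.0142) and 9.05 (-3.18). Proestrus against estrus (adjusted p = 0.411), estrus against metestrus (0.327) and metestrus against diestrus (0.631) did not pass. In an edgeR fit of the 2 stages alone, Cftr was called lower in estrus than in proestrus (log2 difference -0.76, adjusted p = 0.00956). Without metestrus replicate 5, the metestrus level was below that of estrus (log2 difference -2.48, adjusted p = 0.0228) and of proestrus (-3.23, adjusted p = 0.0123); with it these differences were -1.06 (0.327) and -1.81 (0.110). As a share of the epithelial marker sum, Cftr was 3.45% ± 0.327 in proestrus, 2.25% ± 0.165 in estrus, 1.84% ± 1.71 in metestrus and 1.51% ± 1.21 in diestrus. Proestrus and estrus did not overlap on that scale and proestrus lay above diestrus, while metestrus overlapped with both; the part of the epithelial markers in the result was not tested.

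The diestrus against estrus call of Cftr was the least stable. It was lost without proestrus replicate 1 (adjusted p = 0.0535), 2 (0.0522) or 3 (0.0550), estrus replicate 3 (0.0679), 4 (0.103) or 5 (0.0922) or diestrus replicate 3 (0.128) or 4 (0.136), and with DESeq2 (0.118), library totals in place of TMM (0.0514) or counts scaled from TPM (0.0843). The F test was lost without proestrus replicate 2 (0.0727) or 3 (0.0550) or diestrus replicate 3 (0.0710) or 4 (0.0546) and with DESeq2 (0.0897) or counts scaled from TPM (0.0623), and proestrus against diestrus without proestrus replicate 2 (0.0688) or diestrus replicate 3 (0.0755) or 4 (0.0727). The exons of Cftr overlap the antisense gene Gm15592, without a shared stretch of 31 bases.

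Scnn1b (ENSMUSG00000030873, chromosome 7, 121865038 to 121918514, plus strand), the beta subunit of the epithelial sodium channel, went from the floor in proestrus to its highest level in estrus. Proestrus uteri held 0.570, 0.539 and 1.01 CPM, all under the 3-count floor of at most 1.71 CPM in these libraries. Estrus uteri held 24.1, 19.4 and 33.9 CPM, metestrus uteri 19.2, 1.89 and 3.58 CPM, and diestrus uteri 6.48, 11.9 and 17.0 CPM. Estrus lay above diestrus and metestrus without overlap, although metestrus replicate 5 (19.2 CPM) came close to estrus replicate 4 (19.4 CPM). Metestrus replicate 6 was at the floor.

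Measured against that floor, Scnn1b was at least 15.1-fold higher in estrus, at least 6.88-fold higher in diestrus and at least 4.80-fold higher in metestrus than in proestrus. The metestrus bound rests on replicate 5 and was 1.60-fold without it. The difference between estrus and proestrus passed the test (adjusted p = 0.00170), as did that between proestrus and diestrus (0.0146) and the F test over the stages (0.00397). Metestrus against proestrus (0.0532), metestrus against diestrus (0.832) and diestrus against estrus (0.139) did not. Of its share in the epithelial marker sum, the mean was 0.0350% in proestrus, 1.35% ± 0.337 in estrus, 0.810% ± 0.709 in metestrus and 1.91% ± 0.694 in diestrus, so that proestrus, where epithelial markers were high, was lowest on both scales.

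Metestrus replicate 5 moved the Scnn1b contrasts: without it metestrus was below estrus (log2 difference -3.21, adjusted p = 0.00130, against -1.60 and 0.0988 with it), and diestrus was below estrus (-1.15, adjusted p = 0.0235). Metestrus against proestrus was called without metestrus replicate 6 (0.0118), with DESeq2 (0.0108) and without a filter on counts (0.00230). Metestrus against estrus was called without that filter too (0.0250). Diestrus against estrus was called in a fit of the 2 stages alone as well (0.0237). The diestrus call against proestrus was lost without proestrus replicate 1 (0.0555), 2 (0.0695) or 3 (0.0506) or diestrus replicate 5 (0.0514) and with counts scaled from TPM (0.0513). The estrus call was lost in no fit that left out a library.

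Scnn1a (ENSMUSG00000030340, chromosome 6, 125320659 to 125344943, plus strand), the alpha subunit that the channel needs to conduct, had 41 counts in all, and 9 of the 12 libraries were at or under the floor. Proestrus uteri held 0.570, 0 and 1.01 CPM, estrus uteri 1.24, 1.14 and 0.458 CPM, and metestrus uteri 0, 0.631 and 1.19 CPM, against 7.48, 2.47 and 5.66 CPM in diestrus. The 3 libraries above the floor were the diestrus uteri. Their mean, 5.20 ± 2.53 CPM, was at least 3.04-fold above proestrus, 2.80-fold above estrus and 2.75-fold above metestrus. The filter on counts removed Scnn1a; without a filter its F test gave an adjusted p of 0.0116 and diestrus differed from proestrus (adjusted p = 0.0337), while diestrus against estrus (0.0521) and against metestrus (0.127) missed the threshold. The partner subunit Scnn1g was at 0.946 ± 0.426 CPM in estrus and at 0.165 CPM or less on average in the other stages, under the floor. The alpha and beta subunits were thus detected together in diestrus, while estrus had Scnn1b with Scnn1a at the floor.

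Atp1b1 (ENSMUSG00000026576, chromosome 1, 164437109 to 164458355, minus strand) encodes the beta-1 subunit that carries the Na,K-ATPase to the basolateral membrane. It measured 41.6, 51.8 and 45.7 CPM in proestrus, 74.2, 74.4 and 86.7 CPM in estrus, 46.2, 61.9 and 95.6 CPM in metestrus, and 140, 221 and 122 CPM in diestrus. Every diestrus uterus was above every other uterus, and metestrus overlapped with proestrus and estrus. Atp1b1 was 3.47-fold lower in proestrus than in diestrus (log2 difference -1.80 ± 0.26, adjusted p = 0.000917) and 2.05-fold higher in diestrus than in estrus (1.04 ± 0.25, adjusted p = 0.00872), and it differed over the stages (adjusted p = 0.00113). These calls held in every fit without a library. Diestrus against metestrus missed the threshold (1.25 ± 0.25, adjusted p = 0.0617) and passed it without metestrus replicate 7 (0.0113). Estrus against proestrus also missed it (0.76 ± 0.26, adjusted p = 0.0603) and passed without metestrus replicate 5 (0.0311) or 7 (0.0268) or diestrus replicate 4 (0.0373). That contrast also passed in a fit of the 2 stages alone (0.00266).

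Atp1b1 went against the epithelial markers, and as a share of their sum it ran from 2.22% ± 0.168 in proestrus over 4.10% ± 0.345 in estrus and 9.15% ± 6.84 in metestrus to 27.96% ± 13.8 in diestrus. The gland marker sum was higher in diestrus (39.1 to 138 CPM) than in proestrus (9.70 to 20.8 CPM). The part of either marker list in the Atp1b1 result was not tested. The value of Atp1b1 is uncertain, because the 3′ ends of Atp1b1 and of Nme7, on the opposite strand, overlap. Over all their annotated transcripts, they share 575 exon bases between positions 164437109 and 164437725, which hold 16.9% of the 31-base words of Atp1b1. That stretch is the 3′ end of Atp1b1, near which 3' TagSeq reads lie. The share of its reads in the overlap may thus be larger than 16.9% and was not measured. The Nme7 transcript that held 90.1% of that gene's estimated counts overlaps Atp1b1 in 184 bases. The use of strand in counting was not given in the sources used here. Nme7 also differed over the stages (adjusted p = 0.00161), at 17.5 ± 4.23, 38.8 ± 4.84, 27.3 ± 2.17 and 56.4 ± 19.6 CPM in proestrus, estrus, metestrus and diestrus. Reads of the 2 genes in the overlap cannot be told apart without strand.

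Car2 (ENSMUSG00000027562, chromosome 3, 14886273 to 14900770, plus strand) is the cytosolic carbonic anhydrase and had the widest range among the members with counts above the floor in every library. Proestrus uteri held 704, 810 and 610 CPM, estrus uteri 828, 1005 and 1493 CPM, metestrus uteri 286, 343 and 75.7 CPM, and diestrus uteri 70.3, 59.8 and 45.3 CPM. No 2 stages overlapped, although metestrus replicate 7 lay just above the highest diestrus uterus. Car2 was 18.9-fold lower in diestrus than in estrus (log2 difference -4.24 ± 0.45, adjusted p = 4.6e-05) and 12.1-fold higher in proestrus than in diestrus (3.59 ± 0.44, adjusted p = 0.000301). It had fallen 4.72-fold already by metestrus, against estrus (-2.24 ± 0.40, adjusted p = 0.00573), and differed over the stages (adjusted p = 0.000123).

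Estrus against proestrus was not called (0.65 ± 0.39, adjusted p = 0.283), nor was diestrus against metestrus (-2.00 ± 0.42, adjusted p = 0.0727). Both were called without metestrus replicate 7 (0.0496 and 0.000901). In a fit of the 2 stages alone, estrus against proestrus was called as well (0.0282). Metestrus against proestrus was called (3.01-fold lower, -1.59 ± 0.40, adjusted p = 0.0399) but lost without proestrus replicate 1 (0.0915), 2 (0.130) or 3 (0.0894), estrus replicate 3 (0.0523), 4 (0.0614) or 5 (0.0512) or diestrus replicate 3 (0.0574), 4 (0.0531) or 5 (0.0543), with counts scaled from TPM (0.156) and with the 2 stages alone (0.138). With the 2 stages alone, metestrus against estrus missed the threshold too (0.0513). Car2 went with the epithelial markers and beyond them: its level was 33.9% ± 2.87 of their sum in proestrus, 57.1% ± 12.8 in estrus, 24.9% ± 12.1 in metestrus and 9.98% ± 3.33 in diestrus, and diestrus stayed below each other stage without overlap. That share was not tested.

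Car12 (ENSMUSG00000032373, chromosome 9, 66713686 to 66766845, plus strand) is a membrane-bound carbonic anhydrase with its active site outside the cell. As a gene it measured 141, 161 and 155 CPM in proestrus, 147, 152 and 133 CPM in estrus, 111, 130 and 117 CPM in metestrus and 103, 77.4 and 110 CPM in diestrus. The ranges of proestrus and estrus overlapped, and each lay above metestrus and diestrus. Proestrus was 1.57-fold above diestrus (log2 difference 0.65 ± 0.14, adjusted p = 0.0119), diestrus was 1.49-fold below estrus (-0.57 ± 0.14, adjusted p = 0.0114), and the F test gave 0.0157. The F test was lost without diestrus replicate 4 (0.0551) and with counts scaled from TPM (0.0547), proestrus against diestrus without proestrus replicate 2 (0.0585) or diestrus replicate 4 (0.0592), and diestrus against estrus without estrus replicate 4 (0.0621) or diestrus replicate 4 (0.0653).

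In the deposited estimates, most of the Car12 counts were not assigned to the coding transcripts. Which RNA those reads came from was not tested. The 2 full-length coding transcripts, which end at or just before position 66766845, held 25.1% of the counts, and a transcript with a retained intron, which runs from 66713729 to 66716991 and ends in intron 1, held nearly all of the rest. The full-length transcripts measured 28.7, 47.4 and 37.6 CPM in proestrus, 61.9, 60.2 and 57.7 CPM in estrus, 17.6, 32.2 and 28.6 CPM in metestrus, and 6.48, 5.93 and 2.84 CPM in diestrus. Estrus was above and diestrus below all other uteri, while proestrus and metestrus overlapped. The intron 1 transcript was 114 ± 2.07, 82.0 ± 6.62, 92.7 ± 4.25 and 91.3 ± 19.1 CPM in the same order of stages.

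Counted on the full-length transcripts, a choice made after the transcript counts were seen, Car12 was far more variable over the stages. It was lower in diestrus than in estrus (log2 difference -3.50 ± 0.30, adjusted p = 1.14e-05) and than in metestrus (-2.32 ± 0.32, adjusted p = 0.00914), and higher in proestrus than in diestrus (2.86 ± 0.31, adjusted p = 0.000132). Metestrus was below estrus (-1.18 ± 0.25, adjusted p = 0.0125), and the F test gave 4.83e-05; these 5 calls held in every fit that left out a library. Estrus against proestrus (0.64 ± 0.24, adjusted p = 0.0767) and metestrus against proestrus (-0.54 ± 0.25, adjusted p = 0.238) missed the threshold, the former passing it without metestrus replicate 5 (0.0346). The full-length share of the gene's counts was 39.7% to 43.5% in estrus, 20.4% to 29.5% in proestrus, 15.9% to 24.8% in metestrus and 2.59% to 7.67% in diestrus.

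**Figure D3:**
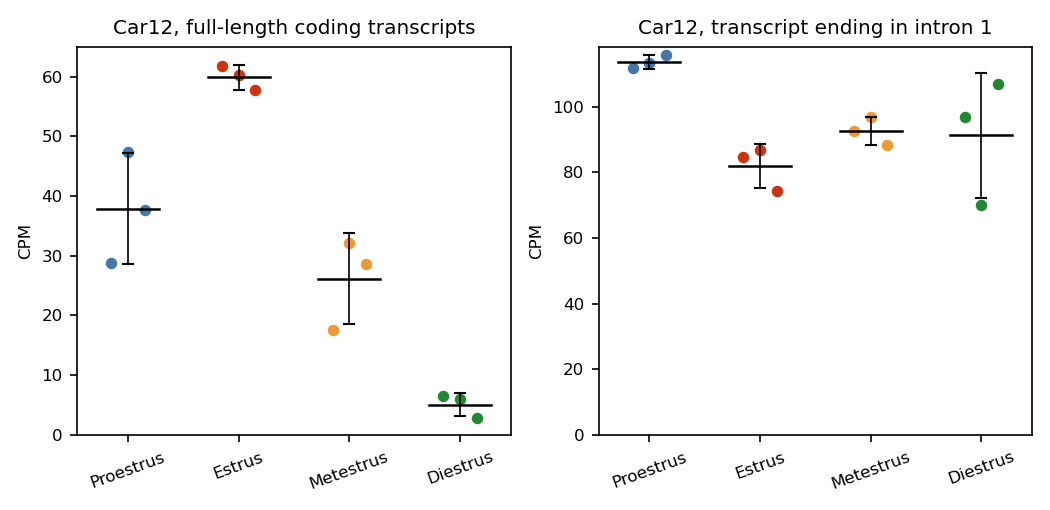
Car12 in CPM (y axes, linear, from 0) in the 12 uteri by stage (x axis), with the full-length coding transcripts on the left and the transcript that ends in intron 1 on the right. Points are uteri, horizontal bars the mean and error bars the SD of 3 uteri. The full-length transcripts fell from 59.9 CPM in estrus to 5.09 CPM in diestrus, and the intron 1 transcript ranged from 82.0 to 114 CPM between stage means.

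Between proestrus and diestrus, all 7 tested members were called, beside 8.53% of all genes tested. Of these, Aqp5, Cftr, Car2 and Car12 were higher in proestrus (4.62% of all genes were called in that direction) and Aqp1, Scnn1b and Atp1b1 higher in diestrus (3.91%). Their median log2 difference was 0.65, against a median of 0.00 over all genes, and it joins members that moved in opposite directions. The count of 7 rested on single libraries: of the 7, 4 were called without proestrus replicate 1 or 3 or diestrus replicate 5 (Cftr, Atp1b1, Car2 and Car12 each time), 3 (Scnn1b, Atp1b1 and Car2) without diestrus replicate 4, and 2 (Atp1b1 and Car2) without proestrus replicate 2. Between diestrus and estrus 5 members were called, beside 22.8% of all genes, with Aqp5, Cftr, Car2 and Car12 lower in diestrus (13% of all genes were called in that direction) and Atp1b1 higher (9.72%); without estrus replicate 4 or diestrus replicate 4 there were 3 (Aqp5, Atp1b1 and Car2). Only Scnn1b was called between estrus and proestrus, beside 17.1% of all genes, and 1 of 7 was near that background; the count was 2 without metestrus replicate 5 or diestrus replicate 3, 4 or 5, and 3 without metestrus replicate 7.

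From estrus to metestrus Aqp5 and Car2 were called, both lower in metestrus, beside 7.56% of all genes, and 1 member was called without estrus replicate 3 or 5 or metestrus replicate 6 or 7, and 3 (Cftr, Scnn1b and Car2) without metestrus replicate 5. Between metestrus and proestrus Aqp1 was higher and Car2 lower, beside 4.31% of all genes; the count was 0 without proestrus replicate 2 or 3, 1 without proestrus replicate 1 or any estrus or diestrus library, and 3 without metestrus replicate 5 or 6. No member was called between diestrus and metestrus by edgeR's quasi-likelihood test (0.224% of all genes). Atp1b1 and Car2, 2 of the 7, had an unadjusted p under 0.05 in that test (0.000212 and 0.000290). Of all 12052 genes, 1489 had an unadjusted p no larger than that of Car12 (0.0562) there. DESeq2 called Atp1b1 and Car2 (adjusted p = 0.00141 and 0.00723), as did edgeR without metestrus replicate 7 (0.0113 and 0.000901). The 6 contrasts share their samples, so the calls of a gene in several of them are not separate evidence.

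**Figure D4:**
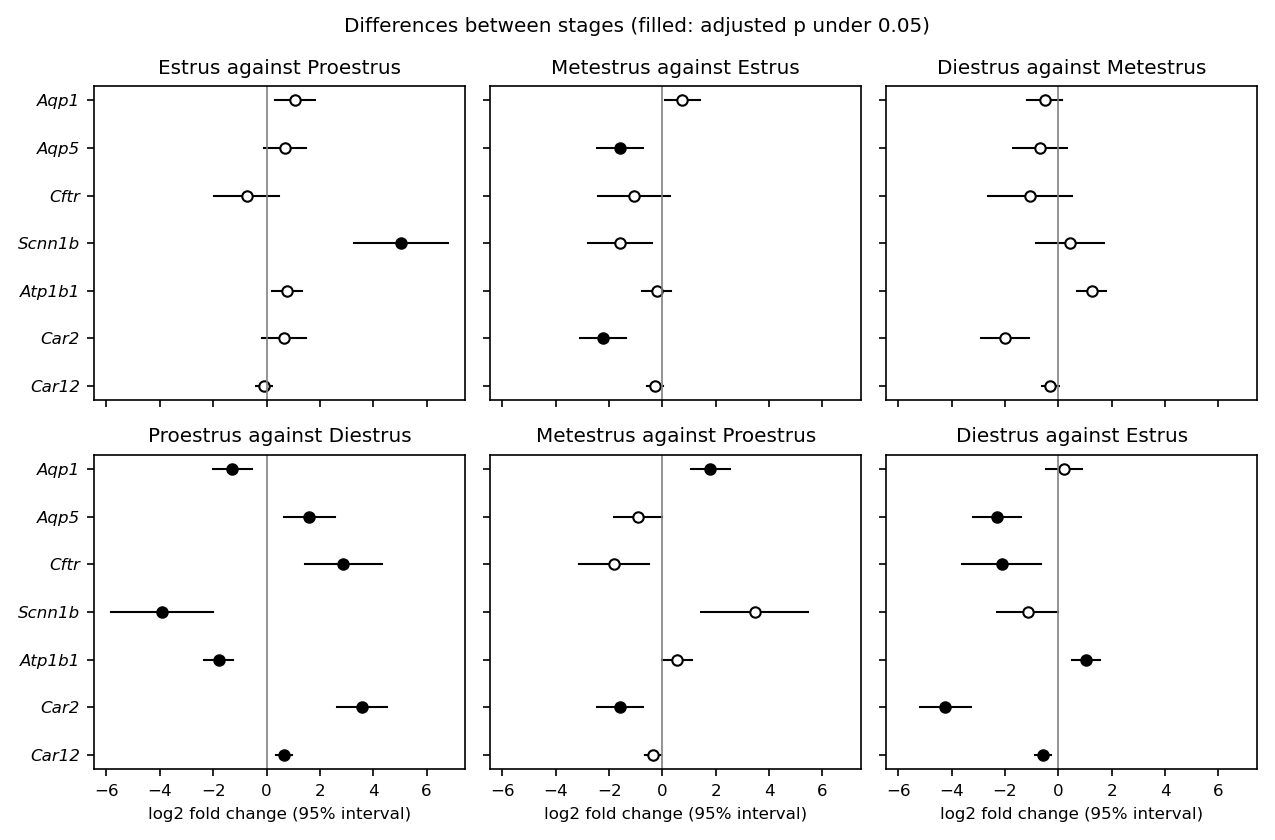
Log2 fold change (x axis) of the 7 tested genes (y axis) in each of the 6 contrasts between stages, first-named stage over second. Points are estimates and bars 95% intervals from edgeR's fit to 12 uteri, and filled points have an adjusted p under 0.05. In proestrus against diestrus 4 genes lie to the right of 0 and 3 to the left, and the estimates of Scnn1b against proestrus rest on a stage under the detection floor and are no bounds.

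Other genes of the same routes were counted from 8 lists, and each list's share called in the F test is to be read beside the 23.2% of all tested genes, with nothing called particular to a list. Of the other aquaporins, 1 of 9 listed had enough counts: Aqp11, an aquaporin of intracellular membranes, was 5.50 ± 1.64 CPM in proestrus and rose to 20.5 ± 5.08 CPM by diestrus (F test adjusted p = 0.0131). Among 13 tested partners and regulators of the sodium channel, 4 were called in the F test, near that background. St14, a membrane serine protease that can activate the channel, was 87.2 ± 5.44 CPM in estrus and 17.5 ± 3.47 CPM in diestrus (0.000133). Hsd11b2, which inactivates glucocorticoids and so keeps the mineralocorticoid receptor for aldosterone, was 240 ± 33.5 CPM in proestrus, 31.3 ± 21.5 CPM in estrus, 181 ± 159 CPM in metestrus and 257 ± 42.3 CPM in diestrus (0.00995); it was thus lowest in the stage in which Scnn1b was highest. Asic2, an acid-sensing channel of the same superfamily, and the kinase Wnk4 were highest in proestrus, at 95.98 ± 26.3 and 20.97 ± 4.95 CPM, and lowest in diestrus, at 22.4 ± 10.1 and 9.07 ± 2.07 CPM (0.00482 and 0.0308).

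Of 9 tested Na,K-ATPase and FXYD subunits, 3 were called, near the background too, all of them FXYD proteins, which tune the pump. Fxyd3 was highest in estrus (485 ± 90.2 CPM) and lowest in diestrus (102 ± 29.1 CPM; F test adjusted p = 0.000744). Fxyd4 fell from 226 ± 43.4 CPM in estrus to 44.1 ± 18.0 CPM in metestrus and was 165 ± 69.6 CPM in diestrus (0.00151), and Fxyd6 was 21.4 ± 7.15 CPM in proestrus but 72.2 ± 12.9 CPM in estrus (0.00985). Of 4 other carbonic anhydrases tested, the mitochondrial Car5b (36.2 ± 8.501 CPM in estrus, 10.3 ± 4.80 CPM in metestrus; 0.00139) and the membrane-bound Car9 (6.22 ± 3.15 CPM in estrus, 0.521 ± 0.500 CPM in diestrus; 0.0334) were called. All diestrus values of Car9 were under the 3-count floor.

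Chloride and bicarbonate transport had 9 of 26 tested genes called in the F test. Clca1, a secreted regulator of calcium-activated chloride channels, was 550 ± 254 CPM in proestrus, 1984 ± 496 CPM in estrus, 186 ± 260 CPM in metestrus and 17.2 ± 12.4 CPM in diestrus (adjusted p = 0.00186). Slc26a4, the anion exchanger pendrin, was detected above the floor mainly in estrus, at 12.4 ± 4.05 CPM, and was at 0 in all diestrus libraries (0.000545). In the other direction, the calcium-activated chloride channel Ano1 was 74.1 ± 16.0 CPM in proestrus and 310 ± 31.4 CPM in diestrus (8.01e-05), and the chloride/proton exchanger Clcn5 was 17.3 ± 0.526 CPM in estrus and 63.9 ± 9.24 CPM in diestrus (1.37e-05). Cftr and Ano1, both chloride channels, thus had their highest stages in proestrus and diestrus. Between estrus and proestrus 7 genes of this list rose and 2 fell, of 26 tested, beside 17.1% of all genes called in either direction.

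Of 9 tested regulators of CFTR, 4 were called. Ezr (ezrin) and Slc9a3r1, which tether CFTR to the apical cytoskeleton, were highest in estrus at 315 ± 3.85 and 53.2 ± 4.68 CPM, and Ezr was lowest in diestrus at 119 ± 15.2 CPM (adjusted p = 0.000325 and 0.00363). The related scaffold Slc9a3r2 was highest in diestrus (135 ± 18.1 CPM; 0.00181), and Prkaca, the catalytic subunit of protein kinase A, was lowest in estrus (11.7 ± 0.239 CPM; 0.0491). Of 11 tested potassium channels, 5 were called, and all 5 were lower in diestrus than in estrus, a direction called in 13% of all genes. Kcne1, a channel regulatory subunit, was 19.96 ± 9.33 CPM in estrus and 0.355 ± 0.309 CPM in diestrus (0.000126), and Kcnn4, a calcium-activated channel that supports chloride secretion, was 29.3 ± 4.40 CPM in proestrus and 3.80 ± 2.37 CPM in diestrus (0.00533). Kcnk2 and Kcnmb1 were highest in estrus, at 31.9 ± 6.84 and 99.0 ± 15.7 CPM (0.0124 and 0.0178). The summed level of smooth muscle markers was highest in estrus as well, and so was the median sum of leukocyte markers. Of the 6 smooth muscle markers, 2 were called higher in estrus than in proestrus and 0 lower, beside 17.1% of all genes called. Their median log2 difference was 0.37, beside 0.02 over all genes. The part of smooth muscle and leukocytes in the potassium channel values was not tested.

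Tight junction proteins, which set how leaky the epithelium is between its cells, had 10 of 17 tested genes called, and 9 of the 17 were lower in diestrus than in estrus, with none higher (13% and 9.72% of all genes were called in these directions). Cldn7, which was also in the epithelial marker list, was 46.6 ± 5.96 CPM in proestrus and 14.2 ± 2.60 CPM in diestrus (adjusted p = 0.00112), and Tjp3 was 42.9 ± 0.184 CPM in estrus and 6.64 ± 2.38 CPM in diestrus (0.00178). Cldn4, a claudin that lowers sodium permeability, was 1.83 ± 0.937 CPM in proestrus and 16.5 ± 1.26 CPM in estrus (0.00113), the same pair of stages as Scnn1b. Cgn (cingulin) was highest in estrus, at 22.0 ± 5.38 CPM, and lowest in metestrus, at 6.75 ± 0.562 CPM (0.00444). Over the 8 lists, median log2 differences between diestrus and estrus ran from -1.08 (other carbonic anhydrases) to 1.74 (Aqp11 alone), beside 0.00 over all genes. The epithelial marker sum fell over the same stages, and its part in these values was not tested.

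**Figure D5:**
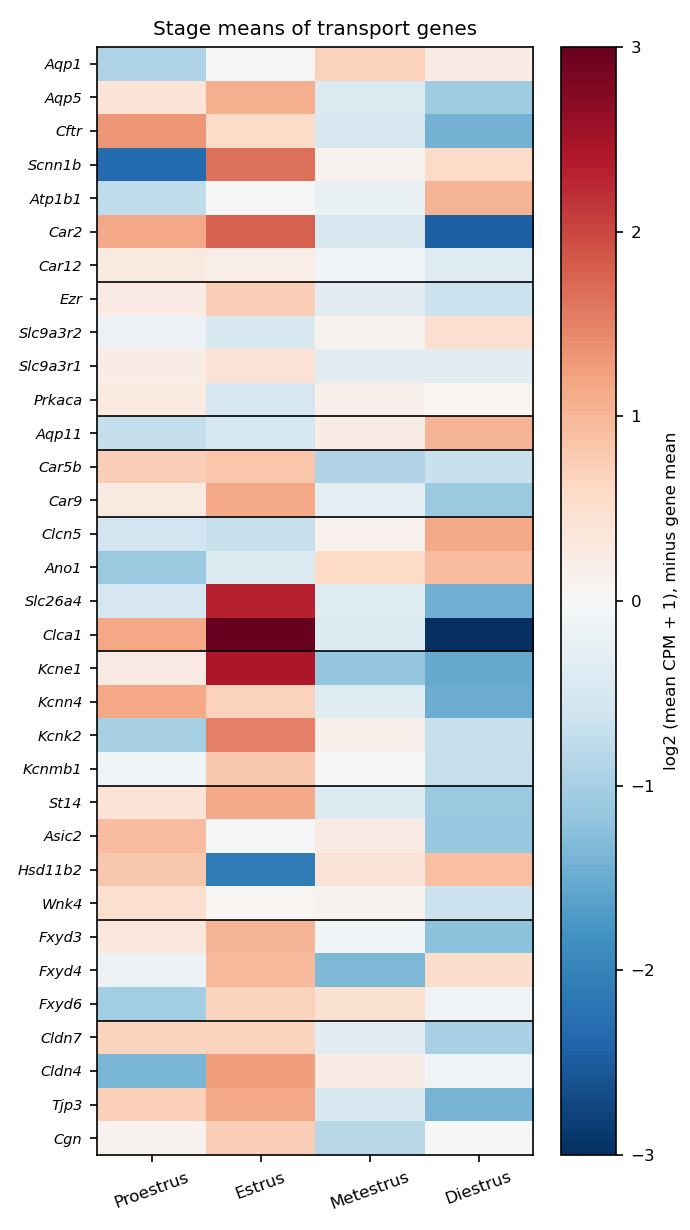
Stage means (x axis) of the 7 tested members and of the named genes of 8 transport and junction lists (y axis, lists divided by black lines), as log2 of the mean CPM plus 1, minus the gene's mean over the stages. Colours run from -3 to 3 and are saturated beyond. Many rows are red in estrus and blue in diestrus, as in Car2 and Clca1, whereas Atp1b1, Aqp11, Clcn5 and Ano1 are red in diestrus.

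The genes with the most similar profiles were sought as those with the smallest root mean square difference in centred log2 CPM over the 12 uteri, on which scale a smaller value is closer. Car2 was closest to Elf3, an epithelial transcription factor that was also one of the epithelial markers (0.39, against a median of 1.77 over all genes), and to Sprr1a (0.51). Aqp5 was closest to Nedd9, a cell adhesion scaffold (0.37, median 1.00), and to Dsg2, a desmosomal cadherin (0.42). Cftr was closest to the predicted gene Gm3336 (0.50, median 1.649) and to the transcription factor Myb (0.56).

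Aqp1 had its nearest profiles in Calcrl, the receptor of adrenomedullin in vessels (0.28, median 0.72), and Dync2h1, a motor of cilia (0.29). Scnn1b was closest to Mt1, a metallothionein (0.74, median 1.61), and C1qtnf3 (0.76), the loosest match of the 7. For Atp1b1 the closest profile was that of Nme7 (0.29, median 0.78), the gene whose 3′ end it overlaps, followed by Tnfsf13b, the B cell survival factor BAFF (0.30). The Car12 profile, taken on the gene's counts and so mainly on the intron 1 transcript, was closest to Pde4d (0.12, median 0.47) and Sox11 (0.12).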

How the data were processed

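RNA of 12 whole uteri was profiled with 3' TagSeq. The authors deposited 1 table per sample with estimated counts and TPM for 119414 transcripts, made with kallisto per the submitters' processing notes; the transcript set and the use of strand were not given in the sources used here. The deposited estimated counts were not scaled, and the deposited TPM are scaled by transcript length, which suits 3' reads poorly, so TPM served only as an alternative. Transcripts were matched to GENCODE M21 (GRCm38), and 0.619% to 0.774% of each library's counts did not match and were left out. Estimated counts were summed per gene and rounded to whole numbers; CPM used the unrounded sums.

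In edgeR 4.0.16 (R 4.3.3), filterByExpr by stage left 12052 genes. TMM factors lay between 0.908 and 1.05, and 1 quasi-likelihood model was fitted to all 12 samples with no covariate (biological coefficient of variation 20.6%). The model was tested on simulated data for estrus against proestrus, with the same spread in every gene. That test does not vouch for the calls of genes that vary more. The F test and 6 two-sided contrasts were adjusted by Benjamini-Hochberg over all 12052 genes, and an adjusted p under 0.05 was called. Errors of log2 differences are SE, others SD. Floors cover counting error only, as no molecular identifiers were described; 95% intervals of log2 differences come from the edgeR fit and include the spread between uteri. Alternatives were DESeq2 1.42.0, other scalings and filters, counts from TPM, fits of the 2 stages alone, each library left out and a replicate block; leaving libraries out of the detection bounds was added after seeing the data.

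The members and lists were chosen with earlier results of these data known. All 9 members are named. Of each pathway list, up to 4 called genes with the smallest F test p are named, and for each called member the 2 genes with the nearest profile; Scnn1g and single marker genes were named after their values were seen.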

Additional observations from a re-analysis of the deposited data

How the results depend on the processing

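No member's called difference changed sign under any alternative. Among the called members' results, 238 of the fits that left out a library and 142 of the other alternatives kept the call, and 50 and 17 lost it. The 5 called results of the Car12 full-length transcripts kept it in 60 and 15 such fits, with none lost. The cause of the shifts below was not tested, except that a mean of at least 50 counts leaves fewer genes and a fit of 2 stages fewer samples.

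With a mean of at least 50 counts, only Cftr, Atp1b1, Car2 and Car12 were left to test among the members. Aqp1, Aqp5 and Scnn1b, with 222, 406 and 264 counts in all 12 libraries, were removed, as were Aqp8 and Scnn1a. Members called were then 4 in the F test, 0 in estrus against proestrus, 1 in metestrus against estrus, 4 in proestrus against diestrus and 1 in metestrus against proestrus. Genes called were 1844 in the F test, 670 in proestrus against diestrus and 1811 in diestrus against estrus. With counts scaled from TPM, members called were 1 in metestrus against estrus, 4 in proestrus against diestrus and 1 in metestrus against proestrus, and genes called were 1675 (F test), 1270 (estrus against proestrus), 410 (metestrus against estrus), 0 (diestrus against metestrus), 540 (proestrus against diestrus), 156 (metestrus against proestrus) and 1798 (diestrus against estrus). Without a filter, 2 members were called in estrus against proestrus, 2 in diestrus against metestrus (256 genes) and 4 in metestrus against proestrus (935 genes). Fits of the 2 stages alone called 5 members in estrus against proestrus, 0 in metestrus against estrus (299 genes), 0 in metestrus against proestrus (42 genes) and 0 genes in diestrus against metestrus. In that last contrast DESeq2 called 2 members and 141 genes, and library totals in place of TMM called 1 member. Where a count of members stands here without one of genes, as for estrus against proestrus, it is not to be read as particular to the members. The edgeR counts were 2793 genes (F test), 2064 (estrus against proestrus), 911 (metestrus against estrus), 27 (diestrus against metestrus), 1028 (proestrus against diestrus), 519 (metestrus against proestrus) and 2744 (diestrus against estrus).

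Leaving out each library in turn gave, for the F test, 6 to 8 members and 1910 to 3428 genes; for estrus against proestrus, 1 to 3 and 1100 to 2414; for metestrus against estrus, 1 to 3 and 341 to 1364; for diestrus against metestrus, 0 to 2 and 5 to 173; for proestrus against diestrus, 2 to 8 and 519 to 1281; for metestrus against proestrus, 0 to 3 and 78 to 1080; and for diestrus against estrus, 3 to 7 and 1910 to 3146. These ranges cover all 9 members, so that Scnn1a or Aqp8 was counted wherever it passed the filter and was called. A count of 8 means that this happened in that fit, and smaller counts can hold them too. Of the 7 members tested with all libraries, the F test called as few as 5 (without diestrus replicate 4). Diestrus against estrus called at most 6 of these 7 (without metestrus replicate 5). Estrus and diestrus share the replicate numbers 3, 4 and 5, but their deviations did not go together (correlations of -0.043, 0.013 and -0.017 over genes). With these numbers as a replicate block, 6 members and 2935 genes were called in diestrus against estrus, the added member being Scnn1b (adjusted p = 0.0133).

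At this depth Aqp8 and Scnn1a could not be tested with a filter, and Scnn1b in proestrus is known only as an upper limit. The median log2 difference of all genes stayed within 0.068 of 0 under each scaling.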
